A study of Mus musculus with 9 samples.

Results

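The genes described here are 37 genes of the oligodendrocyte lineage and of myelin, looked up by symbol among the 38621 genes of the RPKM table, where all 37 were found. They comprise 6 precursor genes, 6 transcription factors and 25 genes of mature, myelinating oligodendrocytes. RPKM is the number of reads on a gene divided by the length of its exons and by the total of reads on genes in that mouse. Levels can thus be compared between mice and, with caution, between genes. Some members, such as Trf and Pllp, share exon bases with other genes, and how reads on shared bases were counted is not given. Brain RNA came from 9 male C57BL/6 mice, 3 per group. The ICH group had an intracerebral hemorrhage, modeled with an injection of autologous blood into the brain. The feb group received the same injection after pretreatment by gavage with febuxostat, which inhibits xanthine oxidase. The sham group is labelled untreated, and the study's methods say that it received a saline injection. Every mouse was of the same strain, no genetic change was involved, and neither the dissected region nor the time of sampling for RNA is given in the sources used here. In such bulk tissue, fewer oligodendrocytes and less RNA per oligodendrocyte cannot be told apart.

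Oligodendrocytes wrap the axons of the central nervous system in myelin, a stack of membrane that is rich in galactolipids and held compact by a small set of abundant proteins. They arise from dividing precursor cells that carry the receptor Pdgfra, pass through a short premyelinating stage marked by Gpr17, Enpp6 and Bcas1, and then switch on the genes for myelin proteins and lipids under Sox10, Olig factors and Myrf. White matter and brainstem hold more of these cells than cortex. ICH against sham asks what the blood injection changed in these genes, and feb against ICH asks what febuxostat before it changed.

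The precursor members had median changes near 0 in each comparison, but in feb relative to sham mice they were split. Pdgfra, Vcan and Neu4 had log2 changes of 0.05, 0.37 and 0.27 there. Those of Gpr17, Bcas1 and Enpp6 were -0.30, -0.49 and -0.75. The mature members were on average lowest in the feb mice. In feb relative to sham mice, 11 of the 37 members fell at an unadjusted p under 0.05 and 0 rose, where 2.9% of all genes tested fell and 5.63% rose. Of these 11, 9 were mature members. Over all genes this balance depended on the scaling. With the median log2 level of all mice set equal (equal medians), 1002 genes were higher and 1500 lower (5.17%) in feb relative to sham mice, in place of 1635 and 843, and 13 members were lower. In ICH relative to sham mice, 1 member rose and 2 fell (all genes, 7.88% and 4.42%, or 1161 genes higher and 2053 lower with equal medians in place of 2288 and 1282), and in feb relative to ICH mice, 0 rose and 4 fell (all genes, 4.9% and 6.16%). In none of the 3 comparisons did a member pass an adjusted p of 0.05. Among mature members the mice within a group differed widely, and feb mouse 3 had the lowest value of all 9 mice for 19 of the 25.

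**Figure D1:**
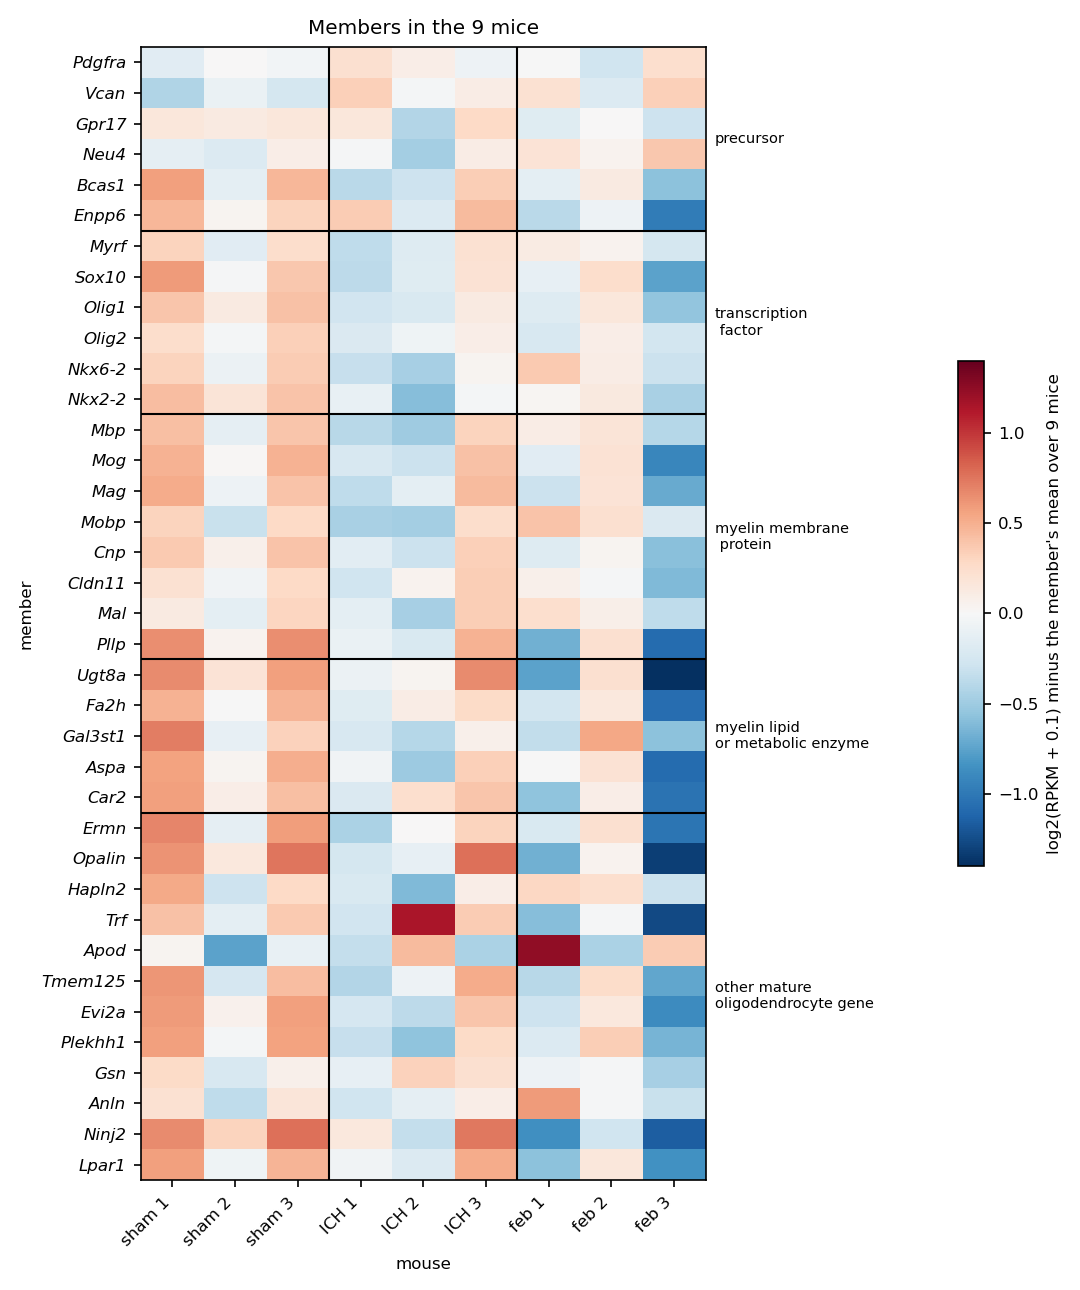
Level of each of the 37 members in the 9 mice, as log2(RPKM + 0.1) minus the member's mean over the 9 mice (color), with members ordered by role and mice by group. Most mature members are high in sham mice 1 and 3 and ICH mouse 3 and low in feb mouse 3, a pattern that the precursor rows Pdgfra, Vcan and Neu4 do not share.

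Between 23065757 and 29538009 reads per mouse were counted on genes. Mice of the same group differed by more than counting noise, with a chi-square between 2 such mice of 13.9 to 48.5 per gene. The 10 pan-neuronal genes checked were detected in every group, with a summed RPKM between 845 and 1635. Replicate numbers are shared by the groups in the labels only, and nothing says whether the mice shared litters or surgery days. Each p-value sets a difference between groups against the spread of mice within groups, and it takes the mice as independent.

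Levels spanned a wide range within the set. Averaged over the 9 mice, Mbp (218 RPKM), which encodes the protein that holds the cytoplasmic faces of myelin together, and Mobp (208 RPKM), another protein of compact myelin, were the most abundant. Bcas1 (155 RPKM), Trf (88.0 RPKM) and Apod (81.1 RPKM) followed. Ninj2, an adhesion molecule, was the lowest at 0.825 RPKM, which corresponded to only 6 to 35 reads per mouse. By role, the mean levels ran from 10.5 to 218 RPKM (median 46.5) for the 8 myelin membrane proteins, from 1.91 to 37.7 RPKM (median 8.09) for the 5 lipid or metabolic enzymes, and from 0.825 to 88.0 RPKM (median 11.3) for the 12 other mature genes. The 6 transcription factors lay between 3.90 and 21.8 RPKM (median 10.4). Without Bcas1, the precursor genes lay between 1.27 and 11.9 RPKM.

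To show the sequence beside the values, the 250 bases before the RefSeq transcription start (GRCm38.p6) are given for 3 members that the results turn on: Opalin and Ugt8a, which fell in feb relative to sham mice, and Vcan, which rose in the ICH group. All 3 are on the minus strand and are written 5′ to 3′ on that strand, at chr19:41077114-41077363 for Opalin, chr3:125938653-125938902 for Ugt8a and chr13:89742513-89742762 for Vcan, with capitals marking a SOX core motif. For Ugt8a and Vcan, the RefSeq start lies outside the outer end of the deposited gene.
Opalin: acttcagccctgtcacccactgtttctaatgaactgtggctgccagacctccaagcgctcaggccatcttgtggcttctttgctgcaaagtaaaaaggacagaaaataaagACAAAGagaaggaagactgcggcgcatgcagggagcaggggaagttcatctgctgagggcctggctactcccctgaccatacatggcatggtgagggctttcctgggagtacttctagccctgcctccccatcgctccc
Ugt8a: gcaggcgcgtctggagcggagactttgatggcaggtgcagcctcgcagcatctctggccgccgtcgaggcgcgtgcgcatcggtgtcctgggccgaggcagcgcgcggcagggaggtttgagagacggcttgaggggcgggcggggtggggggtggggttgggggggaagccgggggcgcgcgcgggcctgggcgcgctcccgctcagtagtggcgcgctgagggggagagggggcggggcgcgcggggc
Vcan: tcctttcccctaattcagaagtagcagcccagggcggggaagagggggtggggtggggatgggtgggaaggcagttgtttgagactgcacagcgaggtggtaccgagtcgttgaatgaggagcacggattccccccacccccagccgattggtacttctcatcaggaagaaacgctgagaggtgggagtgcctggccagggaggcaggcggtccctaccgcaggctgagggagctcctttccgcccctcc
The Ugt8a window had a GC content of 76.8%, compared with 62.4% for Vcan and 54.4% for Opalin. Of the 37 members, 27 were matched to such a window in RefSeq, and their 250 bases were searched on both strands for ACAAAG or ACAATG, the core of SOX family motifs, and for CAGCTG, an E-box, the kind of site that bHLH factors bind. The SOX core was found for 11 of the 27 (40.7%), including 9 of the 20 mature members matched, and in 25.2% of 32851 promoters of the same length. The E-box was found for 4 of the 27 (14.8%) and in 13.0% of those promoters. A member counted if any of its promoters held the motif, and 4 members had more than 1. The 32851 promoters were counted singly, so the shares are not measured alike. The letters searched do not overlap between the motifs, and a match describes the sequence only.

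Among the precursor genes, Vcan and Enpp6 each met an unadjusted p under 0.05 in at least 1 comparison, in opposite directions. Vcan encodes versican, a chondroitin sulfate proteoglycan made by precursors and by fibroblasts, and its RPKM was 2.47, 3.15 and 2.81 (sham), 4.26, 3.28 and 3.61 (ICH) and 3.90, 2.92 and 4.27 (feb), given here and below for mice 1, 2 and 3 of each group in turn. Each ICH mouse exceeded the highest sham mouse, while the feb mice overlapped both groups. Vcan rose in ICH relative to sham mice, by 0.39 ± 0.17 (SE) on the log2 scale (unadjusted p = 0.0483, Benjamini-Hochberg adjusted p = 0.404, limma), from 2.81 ± 0.337 to 3.72 ± 0.499 RPKM (SD, n = 3). This call was lost in 10 of 19 alternative settings, with log2 changes between 0.28 and 0.48 over all of them. The settings included equal-median and quantile scaling, a pseudocount of 1, and the removal of sham mouse 1, sham mouse 3, ICH mouse 1, ICH mouse 3 or feb mouse 1. Fold changes here and below are differences in log2(RPKM + 0.1), a scale that understates the change of genes near 0.1 RPKM.

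Enpp6 encodes a phosphodiesterase that marks oligodendrocytes as they begin to myelinate. The RPKM of Enpp6 was 1.72, 1.25 and 1.53 (sham), 1.58, 1.05 and 1.68 (ICH) and 0.913, 1.15 and 0.568 (feb). The feb mice were all below the sham mice, and feb mouse 3 stood lowest. Enpp6 fell by 0.75 ± 0.27 (SE) on the log2 scale in feb relative to sham mice (unadjusted p = 0.0232, Benjamini-Hochberg adjusted p = 0.565, limma). Compared with the ICH group it fell by 0.67 ± 0.27 (SE) on the log2 scale (unadjusted p = 0.0359, Benjamini-Hochberg adjusted p = 0.418, limma), although ICH mouse 2 lay within the feb range. Without feb mouse 3 these changes were -0.50 and -0.42 and neither call held. The call against the sham group was also lost without sham mouse 1 or sham mouse 3, and that against the ICH group without sham mouse 3, ICH mouse 1, ICH mouse 3 or feb mouse 1.

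The other 4 precursor genes met no threshold. Pdgfra, the receptor for platelet-derived growth factor on precursors and on some fibroblasts, had an RPKM of 7.14, 7.98 and 7.76 (sham), 9.31, 8.52 and 7.58 (ICH) and 7.91, 6.54 and 9.42 (feb). These values overlapped between all groups, and the mouse with the least mature RNA, feb mouse 3, had the most Pdgfra. Neu4, a sialidase, had an RPKM of 1.53, 1.46 and 1.80 (sham), 1.66, 1.17 and 1.80 (ICH) and 1.92, 1.73 and 2.21 (feb), again highest in feb mouse 3 and overlapping between groups. Gpr17 encodes a receptor of the premyelinating stage, and its RPKM was 13.2, 12.8 and 13.2 (sham), 13.2, 8.83 and 14.3 (ICH) and 10.4, 11.8 and 9.58 (feb). The sham mice lay within a narrow range and all feb mice were below them, but the log2 change of -0.30 ± 0.17 (SE) did not meet the threshold (unadjusted p = 0.108, Benjamini-Hochberg adjusted p = 0.641, limma). Bcas1 encodes a protein of early myelinating cells, and its RPKM was 223, 136 and 207 (sham), 115, 123 and 191 (ICH) and 136, 164 and 100.7 (feb). Its order of mice was like that of the mature genes, with sham mice 1 and 3 and ICH mouse 3 highest and feb mouse 3 lowest. Reads on Gpr17 and Bcas1 may include those of genes on the opposite strand that overlap their exons (Lims2 for Gpr17, Bcas1os1 and Bcas1os2 for Bcas1), since the use of strand in counting is not given.

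**Figure D2:**
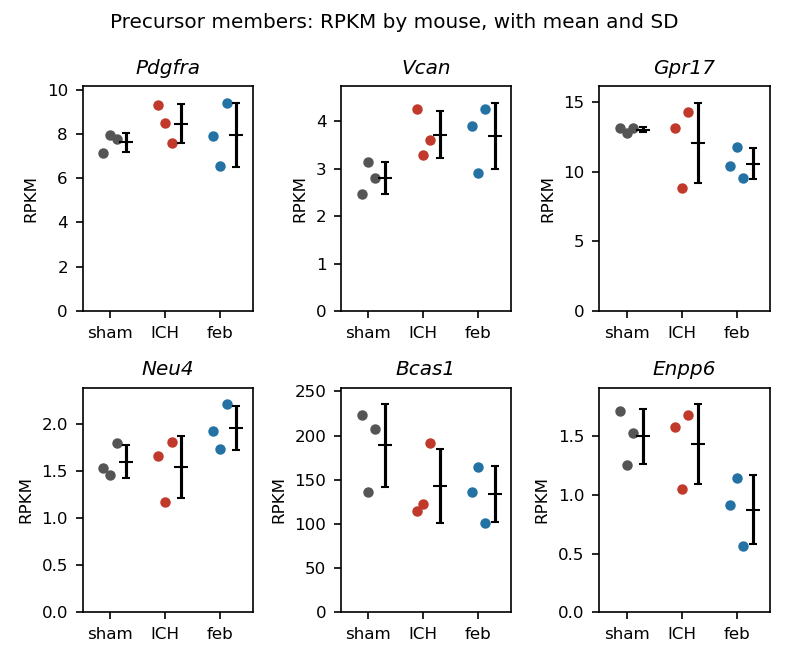
RPKM of the 6 precursor genes in each mouse (points) with the group mean and SD (bars, n = 3), on axes that start at 0. The 3 ICH mice lie above the 3 sham mice for Vcan, and the 3 feb mice lie below the 3 sham mice for Gpr17 and Enpp6.

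The transcription factors were on average highest in the sham mice. At an unadjusted p under 0.05, 2 of the 6, Olig1 and Nkx2-2, fell in the ICH group (all genes, 4.42%, or 7.07% with equal medians). Olig1, a bHLH factor of the lineage, had an RPKM of 14.5, 12.1 and 14.7 (sham), 9.14, 9.51 and 12.1 (ICH) and 9.71, 12.3 and 7.52 (feb). All ICH mice were below all sham mice, and feb mouse 2 alone reached the sham range. Relative to sham mice, Olig1 fell by 0.43 ± 0.18 (SE) on the log2 scale with ICH (unadjusted p = 0.0452, Benjamini-Hochberg adjusted p = 0.402, limma). It fell by 0.50 ± 0.18 (SE) on the log2 scale in feb against sham (unadjusted p = 0.0237, Benjamini-Hochberg adjusted p = 0.565, limma). Nkx2-2, a homeodomain factor needed for timely differentiation, had an RPKM of 5.17, 4.34 and 5.06 (sham), 3.52, 2.47 and 3.73 (ICH) and 3.88, 4.20 and 2.74 (feb). The sham mice were above every ICH and every feb mouse. Nkx2-2os, on the opposite strand, shares 278 exon bases with Nkx2-2, and its share of these reads is not known. Nkx2-2 fell by 0.59 ± 0.20 (SE) on the log2 scale in the ICH group (unadjusted p = 0.0177, Benjamini-Hochberg adjusted p = 0.357, limma), and its change in feb relative to sham mice, -0.44 ± 0.20 (SE), did not meet the threshold (unadjusted p = 0.0582, Benjamini-Hochberg adjusted p = 0.599, limma). Without sham mouse 1, sham mouse 3 or ICH mouse 2, neither gene met the threshold in ICH against sham, and Olig1 also did not without ICH mouse 1 or feb mouse 1. In feb against sham, Olig1 lost its call without sham mouse 1, sham mouse 3 or feb mouse 1, and without feb mouse 3, when its change was -0.33.

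Olig2, the bHLH factor that specifies the lineage, had an RPKM of 9.96, 8.21 and 10.6 (sham), 7.24, 7.99 and 8.95 (ICH) and 7.16, 8.96 and 6.96 (feb), with the ICH and feb mice overlapping the sham mice only at sham mouse 2. Sox10, an HMG-box factor present throughout the lineage, had an RPKM of 31.9, 20.9 and 27.4 (sham), 16.3, 18.7 and 24.3 (ICH) and 19.5, 25.1 and 12.5 (feb), with sham mouse 1 highest and feb mouse 3 lowest. Myrf, the factor that starts and maintains myelin gene expression, had an RPKM of 13.4, 9.67 and 12.8 (sham), 8.43, 9.48 and 12.6 (ICH) and 11.7, 11.2 and 9.07 (feb). The Myrf values of the 3 groups overlapped. Nkx6-2, a homeodomain factor of mature oligodendrocytes, had an RPKM of 11.9, 9.05 and 12.3 (sham), 7.62, 6.90 and 9.83 (ICH) and 12.3, 10.3 and 7.78 (feb). Its highest value was in feb mouse 1 and its lowest in ICH mouse 2, and the log2 change in ICH relative to sham mice was -0.45 ± 0.20 (SE) (unadjusted p = 0.0549, Benjamini-Hochberg adjusted p = 0.408, limma). All 6 factors had a log2 change below 0 in ICH relative to sham mice (median -0.43) and in feb relative to sham mice (median -0.38), and the median between the feb and ICH groups was 0.01. Of the 29025 genes tested, 11294 were below 0 in ICH relative to sham mice and 11970 in feb relative to sham mice.

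Of the myelin membrane proteins, Cnp and Pllp fell in feb relative to sham mice, while the most abundant ones did not meet the threshold. Mbp had an RPKM of 285, 195 and 278 (sham), 162, 151 and 263 (ICH) and 228, 241 and 162 (feb). Mobp had an RPKM of 250.003, 163 and 246 (sham), 148, 145 and 239 (ICH) and 266, 236 and 175 (feb), and its highest value was in feb mouse 1. For both genes the ICH group held the lowest mouse and the groups overlapped, with log2 changes of -0.42 ± 0.25 (SE) for Mbp and -0.32 ± 0.25 (SE) for Mobp in ICH relative to sham mice. Mal, a lipid-associated membrane protein of compact myelin, had an RPKM of 77.5, 64.7 and 87.6 (sham), 64.6, 51.5 and 90.1 (ICH) and 83.6, 75.3 and 55.7 (feb), again without separation of the groups. Cnp, an enzyme that keeps cytoplasmic channels in myelin open, had an RPKM of 64.2, 52.0 and 65.3 (sham), 44.9, 40.3 and 62.4 (ICH) and 43.8, 51.2 and 33.2 (feb). Every feb mouse was below every sham mouse, and Cnp fell by 0.52 ± 0.20 (SE) on the log2 scale (unadjusted p = 0.0311, Benjamini-Hochberg adjusted p = 0.580, limma). Pllp, or plasmolipin, had an RPKM of 15.5, 10.2 and 15.5 (sham), 9.26, 8.47 and 13.8 (ICH) and 6.15, 11.5 and 4.62 (feb), and it fell by 0.96 ± 0.34 (SE) on the log2 scale in feb relative to sham mice (unadjusted p = 0.0202, Benjamini-Hochberg adjusted p = 0.565, limma), although feb mouse 2 was above sham mouse 2. Both calls were lost without sham mouse 1, sham mouse 3, feb mouse 1 or feb mouse 3. An antisense gene with a mean of 4.77 RPKM, against 10.5 for Pllp, shares 1128 of the 2083 exon bases of Pllp. The antisense gene Dnajc7 shares 154 exon bases with Cnp. The share of both antisense genes in these reads is not known. For Mog, Mag and Cldn11, proteins of the outer surface, the inner layer and the tight junctions of myelin, the log2 changes in feb relative to sham mice were -0.63, -0.55 and -0.34, none at an unadjusted p under 0.05.

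The enzymes that make myelin lipids, and carbonic anhydrase, had the lowest values in feb mouse 3. At an unadjusted p under 0.05, 3 of the 5 fell in feb relative to sham mice (all genes, 2.9%, or 5.17% with equal medians). Ugt8a, which makes galactosylceramide, had an RPKM of 15.0, 10.8 and 14.1 (sham), 8.94, 9.71 and 15.0 (ICH) and 5.59, 11.0 and 3.25 (feb). Feb mice 1 and 3 were below all other mice, and feb mouse 2 was within the sham range. Ugt8a fell by 1.15 ± 0.40 (SE) on the log2 scale (unadjusted p = 0.0180, Benjamini-Hochberg adjusted p = 0.565, limma), from 13.3 ± 2.23 to 6.63 ± 4.001 RPKM (SD, n = 3), and this was -0.74 without feb mouse 3, when the call was lost, as it was without sham mouse 1. Fa2h, which hydroxylates the fatty acids of these lipids, had an RPKM of 10.9, 7.72 and 10.8 (sham), 6.88, 8.35 and 9.37 (ICH) and 6.45, 8.63 and 3.66 (feb) and fell by 0.71 ± 0.29 (SE) on the log2 scale in the same comparison (unadjusted p = 0.0378, Benjamini-Hochberg adjusted p = 0.582, limma), or -0.37 without feb mouse 3. The Fa2h call was lost without feb mouse 3, and also without sham mouse 1, sham mouse 3, ICH mouse 2 or feb mouse 1. Car2, carbonic anhydrase II, had an RPKM of 53.5, 38.2 and 47.8 (sham), 31.1, 42.0 and 46.8 (ICH) and 24.2, 38.2 and 17.5 (feb). Of the feb mice, only mouse 2 reached the sham range, just above sham mouse 2, and ICH mice 2 and 3 were within that range. Car2 fell by 0.86 ± 0.28 (SE) on the log2 scale compared with the sham group (unadjusted p = 0.0130, Benjamini-Hochberg adjusted p = 0.565, limma), a call that held in all 19 alternative settings. It fell by 0.64 ± 0.28 (SE) on the log2 scale compared with the ICH group (unadjusted p = 0.0476, Benjamini-Hochberg adjusted p = 0.447, limma), a call lost in 13 of the 19, and this was -0.37 without feb mouse 3. Gal3st1, which makes sulfatide, and Aspa, which releases acetate from N-acetylaspartate, did not meet the threshold, with log2 changes of -0.44 and -0.67 in feb relative to sham mice.

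Among the other mature genes, Opalin and Ninj2 showed the largest falls in feb relative to sham mice. Opalin, a membrane glycoprotein of central myelin, had an RPKM of 19.985, 14.3 and 21.8 (sham), 10.9, 11.9 and 22.0 (ICH) and 8.04, 13.4 and 5.12 (feb). All feb mice were below all sham mice, whereas ICH mouse 3 was as high as the highest sham mouse. Opalin fell by 1.16 ± 0.37 (SE) on the log2 scale (unadjusted p = 0.0136, Benjamini-Hochberg adjusted p = 0.565, limma), from 18.7 ± 3.93 to 8.84 ± 4.18 RPKM (SD, n = 3), in feb relative to sham mice. Ninj2 had an RPKM of 1.23, 0.939 and 1.33 (sham), 0.828, 0.568 and 1.30 (ICH) and 0.363, 0.592 and 0.278 (feb). The feb mice were all below the sham mice, and only feb mouse 2 reached above an ICH mouse. Ninj2 fell by 1.34 ± 0.33 (SE) on the log2 scale compared with the sham group (unadjusted p = 0.00291, Benjamini-Hochberg adjusted p = 0.565, limma) and fell by 0.95 ± 0.33 (SE) on the log2 scale compared with the ICH group (unadjusted p = 0.0182, Benjamini-Hochberg adjusted p = 0.371, limma), with the low read number given above. Its call against the ICH group was lost without ICH mouse 3 or feb mouse 3. The calls of Opalin and Ninj2 against the sham group held in all 19 alternatives, and with a pseudocount of 1 the change of Ninj2 was -0.62. Evi2a, a membrane protein, had an RPKM of 13.0, 8.96 and 12.9 (sham), 7.27, 6.64 and 11.3 (ICH) and 6.99, 9.54 and 4.61 (feb) and fell by 0.75 ± 0.29 (SE) on the log2 scale compared with the sham group (unadjusted p = 0.0313, Benjamini-Hochberg adjusted p = 0.580, limma), and Gm21975 on the same strand shares part of its exons. Lpar1, a receptor for lysophosphatidic acid, had an RPKM of 11.3, 7.26 and 10.6 (sham), 7.34, 6.63 and 10.9 (ICH) and 5.06, 8.45 and 4.18 (feb) and fell by 0.75 ± 0.29 (SE) on the log2 scale (unadjusted p = 0.0318, Benjamini-Hochberg adjusted p = 0.580, limma). For both, feb mouse 2 was above sham mouse 2 and the call was lost without sham mouse 1, sham mouse 3, feb mouse 1 or feb mouse 3, when Evi2a was at -0.48.

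**Figure D3:**
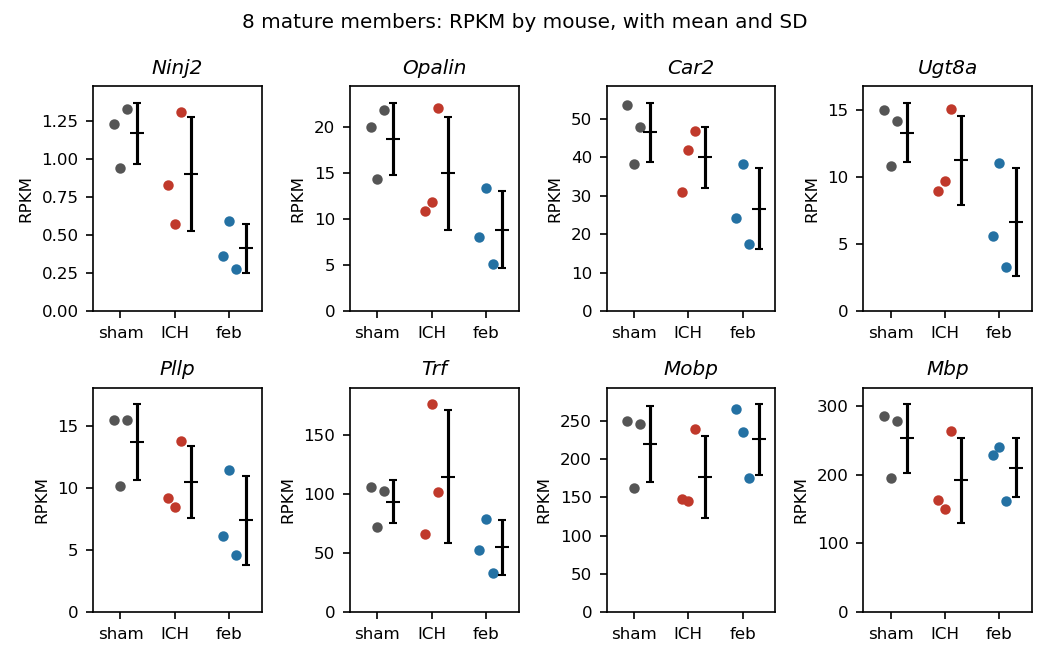
RPKM of 8 mature members in each mouse (points) with the group mean and SD (bars, n = 3), on axes that start at 0. The feb mice lie below the sham mice for Ninj2 and Opalin, while for Mobp feb mouse 1 is the highest of all mice and for Trf ICH mouse 2 stands far above the rest.

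Trf and Apod had patterns of their own. Trf, transferrin, the iron carrier that oligodendrocytes and choroid plexus epithelium both make, had an RPKM of 106, 72.7 and 103 (sham), 66.5, 176 and 102 (ICH) and 52.8, 79.0 and 33.1 (feb). ICH mouse 2 was far above every other mouse and feb mouse 3 was the lowest. Trf fell by 1.04 ± 0.39 (SE) on the log2 scale in feb relative to ICH mice (unadjusted p = 0.0283, Benjamini-Hochberg adjusted p = 0.402, limma) and was the only member past a 2-fold change there, but this was -0.67 without ICH mouse 2, when the call was lost, as it was without ICH mouse 3, feb mouse 1 or feb mouse 3. The summed RPKM of 8 choroid plexus genes, none of them a member, was 1035, 365 and 842 (sham), 836, 967 and 458 (ICH) and 30.6, 56.1 and 88.4 (feb), and its part in the Trf result was not tested. Of the 3320 exon bases of Trf, 2108 are also annotated to Gm20425 on the same strand, so reads of these genes cannot be separated. Apod, apolipoprotein D, which astrocytes and vessel-associated cells also make, had an RPKM of 76.4, 44.1 and 69.1 (sham), 59.0, 100.7 and 54.5 (ICH) and 176, 54.7 and 95.4 (feb). Its highest value was in feb mouse 1 and its lowest in sham mouse 2, and the log2 change of 0.66 ± 0.42 (SE) in feb relative to sham mice did not meet the threshold (unadjusted p = 0.153, Benjamini-Hochberg adjusted p = 0.668, limma). The remaining 6 of the 12 other mature genes (Ermn, Hapln2, Tmem125, Plekhh1, Gsn and Anln) had log2 changes between -0.72 and 0.08 in that comparison, none past the threshold.

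**Figure D4:**
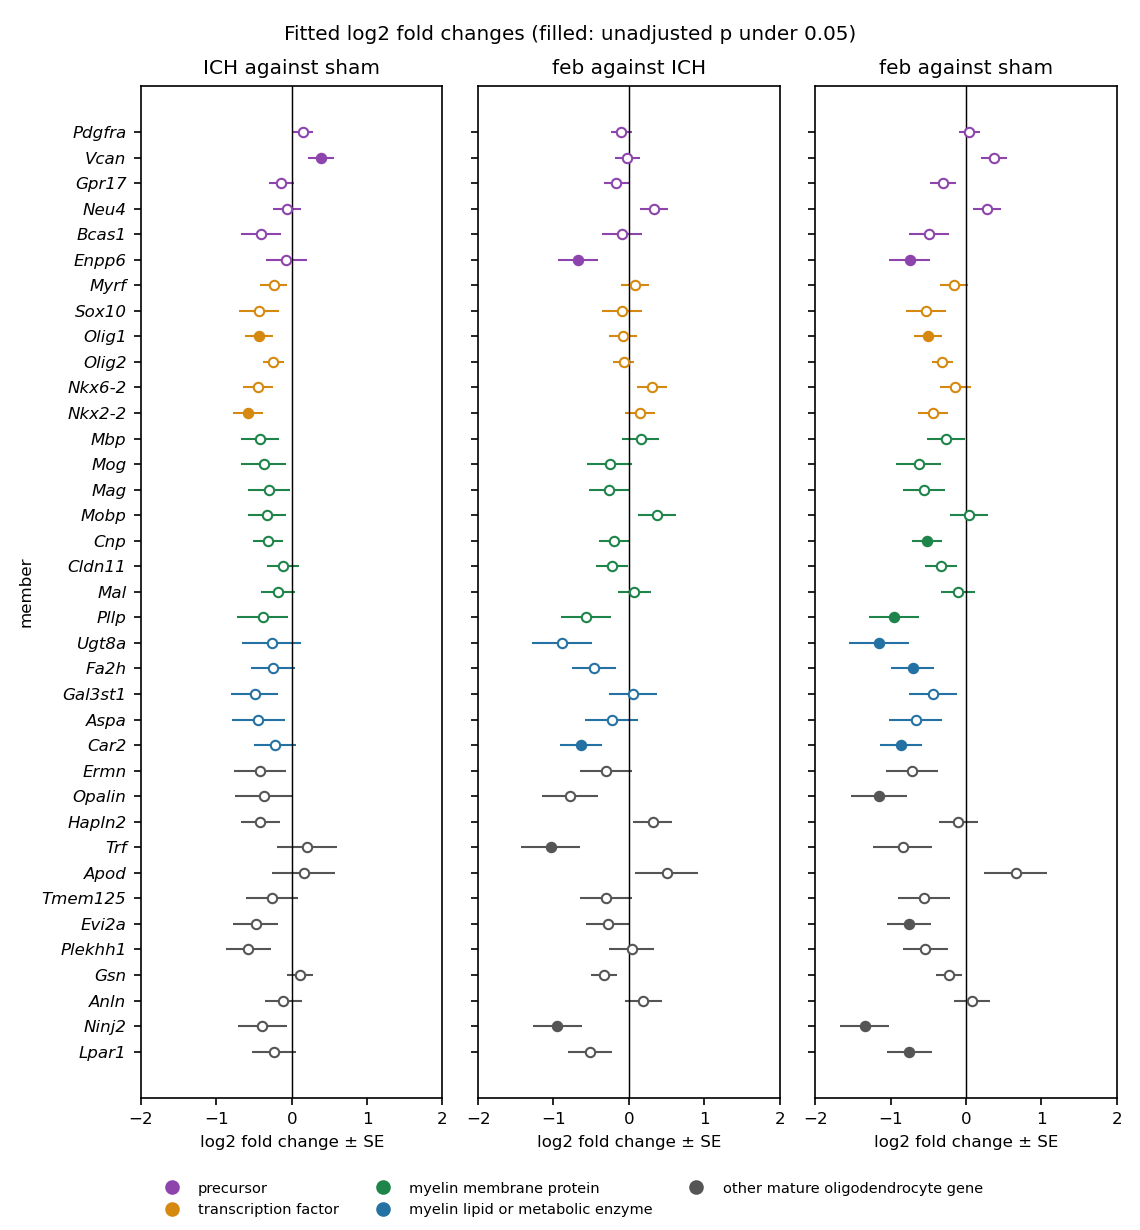
Fitted log2 fold change with its SE for each member in the 3 comparisons (1 panel each, from all 9 mice on the log2(RPKM + 0.1) scale), filled where the unadjusted p was under 0.05 and colored by role. In the panel of feb against sham, 11 members are filled and all lie below 0, while Vcan, Neu4 and Apod lie above 0 without being filled.

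Counted over the set, ICH against sham gave 1 member higher where 7.88% of all 29025 genes tested were higher at an unadjusted p under 0.05, and 2 members lower (5.41%) where 4.42% of all genes were. None was past a 2-fold change with the same p in the lower direction (all genes, 1.07%), and none reached a Benjamini-Hochberg adjusted p of 0.05 in limma (all genes, 0.0241%), the lowest adjusted p among members being 0.357. The groups did not overlap for 1 member in the higher direction (all genes, 13.2%) and 2 in the lower direction (all genes, 6.22%). Of the 37 log2 changes, 32 were below 0 (all genes, 11294 of 29025), with a median of -0.30, compared with 0.08 over all genes. The count of 3 members was 0 without sham mouse 1 and without sham mouse 3, 1 without ICH mouse 1 and without ICH mouse 2, 8 without sham mouse 2, and 9 without ICH mouse 3, 9 being lower and none higher in the last case.

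In feb relative to ICH mice, 0 members were higher (all genes, 4.9%) and 4 were lower (10.8% of 37), compared with 6.16% of all genes. By p and 2-fold change together, 1 member was lower (all genes, 1.05%). None passed adjustment in limma by Benjamini-Hochberg (all genes, 0.00689%; lowest adjusted p among members 0.371). No member had groups without overlap in either direction, where 7.04% of all genes were separated upward and 10.1% downward. The median log2 change was -0.16, compared with -0.01 over all genes. The count of 4 was 2 without sham mouse 3, 1 without ICH mouse 3, without feb mouse 1 and without feb mouse 3, and 10 without feb mouse 2. Without ICH mouse 3 the 1 member was Mobp, which was higher in feb mice, and without feb mouse 3 it was Nkx6-2, also higher.

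In feb relative to sham mice, 0 members were higher (all genes, 5.63%) and 11 were lower (29.7% of 37), compared with 2.9% of all genes. Past a 2-fold change, 3 were lower, namely Ugt8a, Opalin and Ninj2, compared with 0.613% of all genes. None passed adjustment in limma by Benjamini-Hochberg (all genes, 0.00345%; lowest adjusted p among members 0.565). The groups did not overlap for 6 members, all lower (16.2% of 37; all genes, 4.9%), and for 0 in the higher direction (all genes, 7.78%). The median was -0.50, compared with 0.05 over all genes. The count of 11 was 3 without sham mouse 1 and without feb mouse 3, 4 without sham mouse 3, 5 without feb mouse 1, 19 without sham mouse 2, and 24 without feb mouse 2. This comparison shares its sham mice with the first and its feb mice with the second, so the 3 sets of values are not independent.

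The median changes of precursor and mature members are set side by side here, with no test of their difference. The median log2 change of the 6 precursor genes was -0.07 in ICH against sham, -0.09 in feb against ICH and -0.13 in feb against sham, and that of the 25 mature genes was -0.32, -0.26 and -0.56. The precursor median was thus above the mature median by 0.25, 0.16 and 0.43, each as a difference of medians with no test. In feb against sham, 3 of the 6 precursor genes had a change above 0 and 3 below 0, so their median lies between unlike changes. Per mouse, the mean log2(RPKM + 0.1) of the precursor genes minus that of the mature genes was -1.59, -1.16 and -1.49 (sham), -0.86, -1.28 and -1.34 (ICH) and -1.08, -1.38 and -0.60 (feb). The 3 groups overlapped, and their means were -1.41 ± 0.23 (SD, n = 3), -1.16 ± 0.26 (SD, n = 3) and -1.02 ± 0.39 (SD, n = 3), with a pooled SD within groups of 0.302. The mature part moved more than the precursor part, from 4.48 in sham mouse 1 to 3.26 in feb mouse 3, while the precursor mean stayed between 2.59 and 3.003. Without feb mouse 3 the difference of medians between the feb and ICH groups was -0.10, and without ICH mouse 3 it was 0.01. It was 0.18 without feb mouse 3 in feb against sham, and 0.05 without ICH mouse 1 in ICH against sham. The ratio of the highest to the lowest mouse had a median of 2.70 over mature members and 1.80 over precursor members.

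The mature members varied together from mouse to mouse within groups. Of the 25, sham mouse 1 was above the gene's own median over the 9 mice for 25, sham mouse 3 for 24 and ICH mouse 3 for 23. In contrast, sham mouse 2 was above it for 3, ICH mouse 1 for 0, ICH mouse 2 for 4, feb mouse 1 for 6, feb mouse 2 for 14 and feb mouse 3 for 1. The 6 that were high in feb mouse 1 were Mobp, Cldn11, Mal, Hapln2, Apod and Anln.

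Markers of brain regions also differed between mice. The summed RPKM of 8 thalamus and midbrain neuron genes was 239, 215 and 359 (sham), 157, 63.8 and 259 (ICH) and 296, 294 and 149 (feb). That of 8 cortical excitatory neuron genes lay at 118 to 230 (sham), 314 to 522 (ICH) and 236 to 321 (feb). At an unadjusted p under 0.05, 5 of the 8 were higher in the ICH than in the sham group (all genes, 7.88%). In feb relative to sham mice, 3 of the 8 were higher (all genes, 5.63%) and 0 lower (all genes, 2.9%). In feb relative to ICH mice, 0 were higher (all genes, 4.9%) and 1 was lower (all genes, 6.16%). The sum of 8 striatal neuron genes was 108, 632 and 236 (sham), 268, 494 and 550 (ICH) and 421, 214 and 411 (feb). The 6 brainstem neuron genes summed to 54.1 in sham mouse 1, to 4.08 and 7.91 in the other sham mice, to between 1.37 and 2.80 in the ICH mice and to between 3.33 and 11.9 in the feb mice, and Hoxb3, Hoxb5 and Hoxc4 were listed at 0 in every ICH mouse. The lowest sum of thalamus and midbrain genes in the feb group and the highest in the ICH group were those of the mice with the lowest and the highest mature mean of their groups, feb mouse 3 and ICH mouse 3. ICH mouse 2, with the lowest such sum of all 9 mice, had a mature mean of 3.87, between those of the other ICH mice. Sham mouse 2 had both the lowest sum and the lowest mature mean of its group. However, the highest sum of the sham group was in mouse 3 and the highest mature mean in mouse 1. Feb mouse 1 had the highest sum of its group with a mature mean of 3.84, below the 4.12 of feb mouse 2. The part of regional make-up in the results on mature members was not tested.

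**Figure D5:**
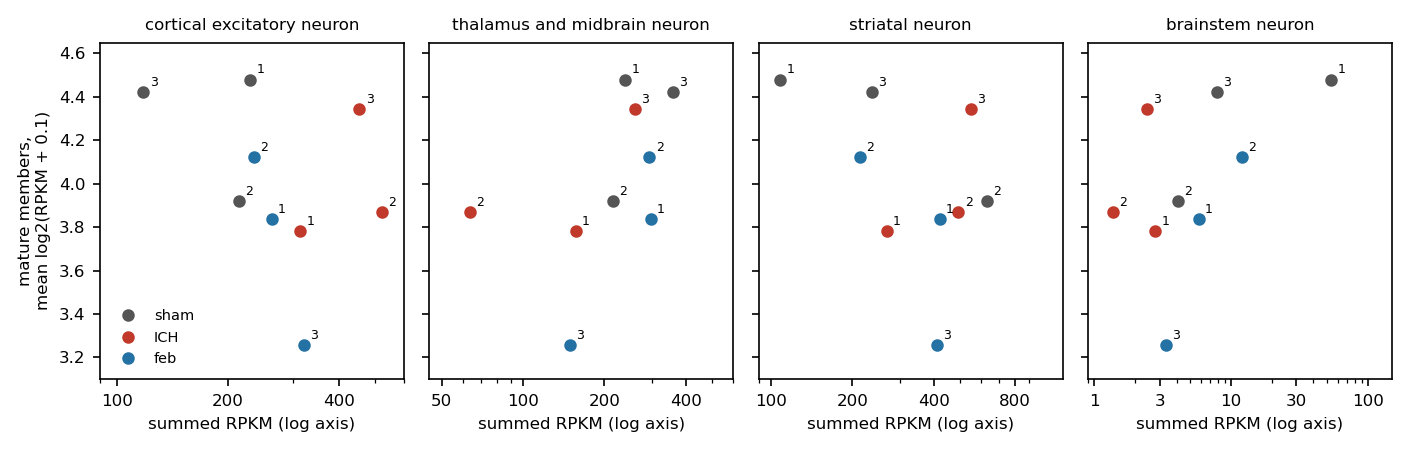
Mean log2(RPKM + 0.1) of the 25 mature members in each mouse (y axis) against the summed RPKM of neuron marker genes of 4 brain regions (x axes, logarithmic), with points colored by group and numbered by mouse. Sham mice 1 and 3 and ICH mouse 3 have the highest mature means, at 4.34 to 4.48, and feb mouse 3, at 3.26, has the lowest. The thalamus and midbrain sum of feb mouse 3 is low, but the lowest is that of ICH mouse 2, with a mature mean of 3.87.

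Other cell types that share members with the lineage were checked in the same way. The 7 pericyte and fibroblast genes, from cells that can also express Pdgfra or Vcan, summed to 32.7 to 43.0 (sham), 34.1 to 38.7 (ICH) and 21.5 to 32.2 (feb). The 7 astrocyte genes summed to 488 to 592 (sham), 524 to 1016 (ICH) and 447 to 601 (feb). The 7 microglia genes summed to 61.0 to 81.2 (sham), 69.9 to 139 (ICH) and 56.3 to 89.6 (feb). The 5 red blood cell genes reached 124 in ICH mouse 1 and lay between 17.1 and 40.6 in the other mice. In feb relative to sham mice, 2.9% of all genes were lower at an unadjusted p under 0.05, and 8 of 8 choroid plexus genes were. So were 3 of 5 red blood cell, 3 of 7 pericyte and fibroblast and 1 of 7 astrocyte genes. In feb relative to ICH mice, 6.16% of all genes were lower, and 8 of 8 choroid plexus genes were. So were 4 of 7 microglia, 4 of 5 red blood cell, 1 of 7 pericyte and fibroblast and 1 of 7 astrocyte genes. In ICH relative to sham mice, 1 of 7 microglia and 1 of 7 astrocyte genes were higher (all genes, 7.88%). In that comparison, 0 genes of these 5 lists were lower (all genes, 4.42%). No gene of these lists was at 0 in all mice of a group, and their part in the results above was not tested.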

How the data were processed

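RNA of 9 mouse brain samples was depleted of rRNA and marked with molecular identifiers before amplification. The authors trimmed reads (Trimmomatic 0.36), collapsed them to consensus reads by identifier, aligned these to GRCm38 and counted them on exons with featureCounts (Subread 1.5.1). The authors deposited RPKM values for 38621 genes, 1 column per mouse, together with the position and exon length of each gene, and 100% of values in each mouse were within 0.01 reads of a whole multiple of 1 read, so that reads per gene could be recovered. The annotation release and the use of strand in counting are not given in the sources used here. The authors' own tests used edgeR on counts. Here the deposited RPKM were tested on a log scale, and the recovered reads only in an alternative (voom).

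Members were matched by symbol. The members and the gene lists were chosen with earlier results of these data known. Differential expression was tested with limma 3.58.1 (R 4.3.3, lmFit and eBayes with trend, all 9 mice in one fit without a block) on log2(RPKM + 0.1) over the 29025 genes with at least 0.1 RPKM in at least 3 mice, and p-values were adjusted by Benjamini-Hochberg over all of these. All 37 members passed this filter. The study's criteria, an unadjusted p under 0.05 and a fold change over 2, were counted as well. Values per mouse are given for precursor genes, transcription factors, the 5 mature members with the highest mean RPKM and every other member with an unadjusted p under 0.05. Of the other lineage genes, at most the 6 with the lowest p per list are named. S1pr5 was named after its values were seen, because it was the only one of its count. Alternatives were pseudocounts of 1 and 0.01, no filter, a filter at 1 RPKM, equal medians, quantile normalization, only the 2 groups compared, no trend, the replicate number as a block, voom on recovered reads, and each mouse left out. Python 3.11.15 with pandas 2.3.3 was used for all other tables. Promoter sequences came from RefSeq (GRCm38.p6), and protein sequences were not used here. Single values of some genes of the other lists are not reported here.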

Additional observations from a re-analysis of the deposited data

How the results depend on the processing

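The counts of members at an unadjusted p under 0.05 rested on few mice. Leaving out each mouse in turn, they ranged from 0 to 9 in ICH against sham (3 with all mice), from 1 to 10 in feb against ICH (4) and from 3 to 24 in feb against sham (11). Without a trend in eBayes the count in ICH against sham was 1, with a fit of only the 2 groups that in feb against ICH was 2, and with voom on the recovered reads that in feb against sham was 17, of which 16 were lower. With the replicate number as a block the counts were 1, 2 and 6. The correlation of same-numbered mice in their deviations from the group means was between -0.13 and 0.02. With 3 mice per group this cannot show whether such mice shared a litter or a surgery day. Why calls were lost with the block was not tested. Pseudocounts of 1 and 0.01, no filter, a filter at 1 RPKM, equal medians and quantile normalization left each count within 1.5 times, although equal medians moved the median log2 change of all genes from 0.08 to -0.03 in ICH against sham and from 0.05 to -0.06 in feb against sham, and the members' falls there are read relative to it. Over all genes the balance of calls turned with these 2 scalings. In ICH against sham it went from 2288 higher and 1282 lower to 1161 and 2053 with equal medians and to 1581 and 1790 with quantile normalization, and in feb against sham from 1635 and 843 to 1002 and 1500 and to 1185 and 1266. With voom, 1746 genes were higher and 843 lower in feb against sham. Of the 18 calls of single members, those of Car2, Opalin and Ninj2 in feb against sham held in all 19 alternatives. The difference between precursor and mature medians (0.25, 0.16 and 0.43) ranged, leaving out each mouse in turn, from 0.05 to 0.38 in ICH against sham, from -0.10 to 0.38 in feb against ICH, where it turned sign without feb mouse 3, and from 0.18 to 0.73 in feb against sham. Groups of 3 were too small for a test of outlying mice, Ninj2 rested on 6 to 35 reads, and the cause of the changes between settings was not tested.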

Other observations

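Genes of the lineage outside the 37 were read in the same fit. Of 12 other precursor genes, 0 rose and 1 fell at an unadjusted p under 0.05 in ICH relative to sham mice, 1 rose and 1 fell in feb relative to ICH mice, and 0 rose and 1 fell in feb relative to sham mice, with median log2 changes of -0.08, 0.02 and -0.06. Of all genes tested, 7.88%, 4.9% and 5.63% were higher and 4.42%, 6.16% and 2.9% lower in these comparisons. Lhfpl3, a tetraspan membrane protein of precursors, had an RPKM of 7.25, 6.13 and 7.04 (sham), 5.68, 3.77 and 5.36 (ICH) and 7.08, 7.38 and 5.88 (feb). The ICH mice were below every mouse of both other groups. Lhfpl3 fell by 0.47 ± 0.16 (SE) on the log2 scale in ICH relative to sham mice (unadjusted p = 0.0194, Benjamini-Hochberg adjusted p = 0.363, limma) and was higher by 0.46 ± 0.16 (SE) in feb relative to ICH mice (unadjusted p = 0.0210, Benjamini-Hochberg adjusted p = 0.378, limma). Sox6, a SOX factor of precursors, fell by 0.33 ± 0.13 (SE) on the log2 scale in feb relative to ICH mice (unadjusted p = 0.0336, Benjamini-Hochberg adjusted p = 0.415, limma). Cspg4, the NG2 proteoglycan of precursors and pericytes, fell by 0.29 ± 0.13 (SE) on the log2 scale in feb relative to sham mice (unadjusted p = 0.0473, Benjamini-Hochberg adjusted p = 0.583, limma). These sizes are below a 2-fold change, and the ICH mice are used in both comparisons of Lhfpl3.

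Of 22 other mature genes, 1 fell in ICH relative to sham mice (S1pr5, a sphingosine 1-phosphate receptor), 1 in feb relative to ICH mice (Tppp, a microtubule-associated protein) and 9 in feb relative to sham mice, and 0 rose in any of them, beside the same shares of all genes. The median log2 changes were -0.39, -0.13 and -0.49. Tppp had an RPKM of 86.7, 79.4 and 85.6 (sham), 87.1, 96.8 and 100.3 (ICH) and 69.6, 80.0 and 60.5 (feb), with all feb mice below all ICH mice, and it fell by 0.44 ± 0.11 (SE) on the log2 scale (unadjusted p = 0.00304, Benjamini-Hochberg adjusted p = 0.267, limma). In feb relative to sham mice, Il33, an alarmin also made by oligodendrocytes, fell by 0.92 ± 0.31 (SE) on the log2 scale (unadjusted p = 0.0172, Benjamini-Hochberg adjusted p = 0.565, limma), and Cryab, a small heat shock protein, fell by 0.89 ± 0.32 (SE) on the log2 scale (unadjusted p = 0.0207, Benjamini-Hochberg adjusted p = 0.565, limma). Serpinb1a, a protease inhibitor, had an RPKM of 8.69, 5.12 and 8.90 (sham), 3.51, 3.56 and 7.06 (ICH) and 2.57, 6.32 and 1.76 (feb), with feb mouse 3 lowest, and fell by 1.23 ± 0.47 (SE) on the log2 scale (unadjusted p = 0.0278, Benjamini-Hochberg adjusted p = 0.565, limma). Gpr37, an orphan receptor of myelinating cells, fell by 0.58 ± 0.23 (SE) on the log2 scale (unadjusted p = 0.0323, Benjamini-Hochberg adjusted p = 0.580, limma). For these 4 genes, feb mouse 2 lay within the sham range.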
